A study of Mus musculus with 14 samples.

Results

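Carcinomas were compared with adenomas over all genotypes of MMTV-PyMT mammary tumors. The members were the 7 tumors labelled carcinoma and the 6 labelled adenoma, taken by that label alone, and they made up 13 of the 14 tumors sequenced by RNA-seq. The carcinomas were 2 *Lats1*-CKO PyMT tumors (14 and 18), 3 *Lats2*-CKO PyMT tumors (1, 8 and 16) and 2 WT-PyMT tumors (17 and 1). The adenomas, which the study calls adenoma/MIN (MIN stands for mammary intraepithelial neoplasia), were *Lats1*-CKO 27, *Lats2*-CKO 7 and the WT-PyMT tumors 20, 22, 2 and 14. The remaining tumor, *Lats1*-CKO 21, is an adenosquamous carcinoma, and its values stand beside the comparison without entering it. All mice carried the polyomavirus middle T antigen, an oncogene that the MMTV promoter switches on in the mammary epithelium. In the conditional knockouts (CKO), Cre recombinase removed an exon of *Lats1* or of *Lats2* in the mammary epithelium, so that the other cells of a tumor kept both genes, and the WT-PyMT tumors came from littermates without the deletion. The 7 tumors of the *Lats2* experiment came from 7 mice, and those of the *Lats1* experiment from mice aged 3 months. The age of the mice sequenced in the *Lats2* experiment, and whether all tumors of the *Lats1* experiment came from different mice, were not given in the sources used here, so that p-values measure the spread between these tumors. Each genotype was sequenced with its own littermates in an experiment of 7 libraries, so that 4 genotype-by-experiment groups resulted, each with both histologies. They held 2 carcinomas and 1 adenoma (*Lats1*-CKO PyMT), 3 and 1 (*Lats2*-CKO PyMT), 1 and 2 (WT-PyMT of the *Lats1* experiment), and 1 and 2 (WT-PyMT of the *Lats2* experiment).

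PyMT tumors pass from hyperplasia through adenoma/MIN to carcinoma, the stage at which the myoepithelial layer around the ducts is lost and tumor cells invade the surrounding tissue. That tissue is the mammary fat pad, a bed of white adipocytes with fibroblasts, vessels, nerves and resident immune cells, and often with a lymph node. White adipocytes store triglyceride in 1 large droplet, secrete hormones such as leptin and adiponectin, and are built and kept by the nuclear receptor PPARγ together with C/EBP factors. RNA was taken from whole tumors, and in such bulk samples fewer cells of a type and less RNA per cell cannot be told apart.

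The genes of that adipocyte program made up much of what follows, and the promoter of *Lep*, which encodes leptin, is shown because it is the single white adipocyte gene of the list used here whose promoter held the palindrome that C/EBP factors prefer, TTGCGCAA (searched on both strands, which read alike). It is given from RefSeq at the 250 bases before the start of the gene (GRCm38.p6, chr6:29059971-29060220, plus strand, 5′ to 3′), with the motif in capitals, at bases -55 to -48 from the start.

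*Lep* promoter: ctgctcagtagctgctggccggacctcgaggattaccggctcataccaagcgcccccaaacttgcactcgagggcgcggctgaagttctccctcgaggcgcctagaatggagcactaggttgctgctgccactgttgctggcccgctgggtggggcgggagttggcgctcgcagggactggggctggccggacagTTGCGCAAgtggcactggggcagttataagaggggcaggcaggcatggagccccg

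The 8 letters occurred in 37 of 12840 promoters of measured genes (0.288%), and in 1 of the 16 white adipocyte genes with a promoter in the table. The TATA box, searched as TATAAA on both strands, occurred in 1206 (9.39%) and in 1 of the 16 (*Cyp2e1*). The direct repeat that PPARγ binds together with RXR, searched as AGGNCANAGGNCA on both strands, occurred in 44 promoters (0.343%) and in 0 of the 16. A match describes letters in this window and no binding.

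Counts assigned to genes summed to between 20338685 and 31909282 in carcinomas (median 27040425), between 19160994 and 26772845 in adenomas (median 23954053.5), and to 18593864 in the adenosquamous tumor. Values are given as CPM, counts relative to the total of the library after TMM scaling, a correction for a few genes that take up many reads, and lists by the mean of log2 CPM over their genes. *Lats1* lay between 32.1 and 37.3 CPM in the 4 *Lats1*-CKO tumors and between 102 and 153 CPM in the other 10, so that all labels held for this gene. *Lats2* was at 10.951, 16.4 and 8.49 CPM in 3 *Lats2*-CKO tumors, but the library labelled *Lats2*-CKO 1 had 33.7 CPM, within the 19.5 to 55.9 CPM of WT-PyMT tumors. All 14 tumors carried keratins and junction genes of simple epithelium, at a list mean of 7.67 to 8.50 log2 CPM except for WT-PyMT 14, an adenoma with 6.41. WT-PyMT 14 and WT-PyMT 22, also an adenoma, stood farthest from the others (mean root-mean-square difference 4.60 and 3.36 log2 CPM, against 2.51 to 3.02 for the other 12). Carcinomas differed from each other by a median of 2.42 log2 CPM over 21 pairs, and carcinomas from adenomas by 2.75 over 42 pairs. Adenomas differed among themselves by 3.02 over 15 pairs, so that in these genes they were the more mixed set.

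Which transcripts differ between carcinoma and adenoma, with genotype and experiment held equal, was asked in 1 fit over the 13 tumors. Fold changes are log2 values of carcinoma over adenoma within the genotype-by-experiment groups, given with their standard errors (±), and n is 7 carcinomas and 6 adenomas throughout. They need not equal the ratio of the group means, because 5 of 7 carcinomas but 2 of 6 adenomas were CKO. Of 17232 genes, 0 (0%) passed edgeR's quasi-likelihood test at an adjusted p under 0.05 (Benjamini-Hochberg over all genes, smallest adjusted p 0.828), in either direction. At an unadjusted p under 0.05, edgeR gave 275 genes higher in carcinomas (1.6%) and 507 lower (2.94%). DESeq2, run on the same tumors with the same groups, called 16 genes higher (0.0936% of 17100 with an adjusted p) and 91 lower (0.532%). Below, "called" and adjusted p values refer to DESeq2, "p under 0.05" and "past p 0.05" to edgeR's unadjusted test, and no gene named passed edgeR's adjusted threshold. Fold changes were below 0 for 9901 genes (57.5%), with a median of -0.05 over all genes. Among the 13847 genes with a mean of at least 1 CPM, the carcinoma mean of log2 CPM was below the adenoma mean in all 4 groups for 1087 genes (7.85%) and above it for 1407 (10.2%). In 38 genes every carcinoma was higher than every adenoma (0.274%), and in 20 every carcinoma was lower (0.144%).

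White adipocyte genes were lower in carcinomas throughout the list. All 18 genes measured had a fold change below 0 (57.5% of all genes did), with a median of -2.696, and 15 were lower at an unadjusted p under 0.05 (2.94% of all genes). The median was -4.00 without the carcinoma WT-PyMT 17 (17 lower at that p, beside 599 of all genes). It was -2.08 without the carcinoma WT-PyMT 1 (9 lower, beside 236) and -1.80 without the adenoma *Lats1*-CKO 27 (6 lower, beside 419). The median lay within these values when any other tumor was left out. DESeq2 called 6 of the 18 lower (0.532% of all genes with an adjusted p). Their mean was 0.30 to 5.55 log2 CPM in carcinomas (median 3.20), against 4.67 to 8.49 log2 CPM in adenomas (median 5.87). The carcinoma WT-PyMT 17 was the only one that reached into the range of the adenomas, above *Lats2*-CKO 7, *Lats1*-CKO 27 and WT-PyMT 20, and WT-PyMT 2 and WT-PyMT 14 were the highest adenomas.

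**Figure D1:**
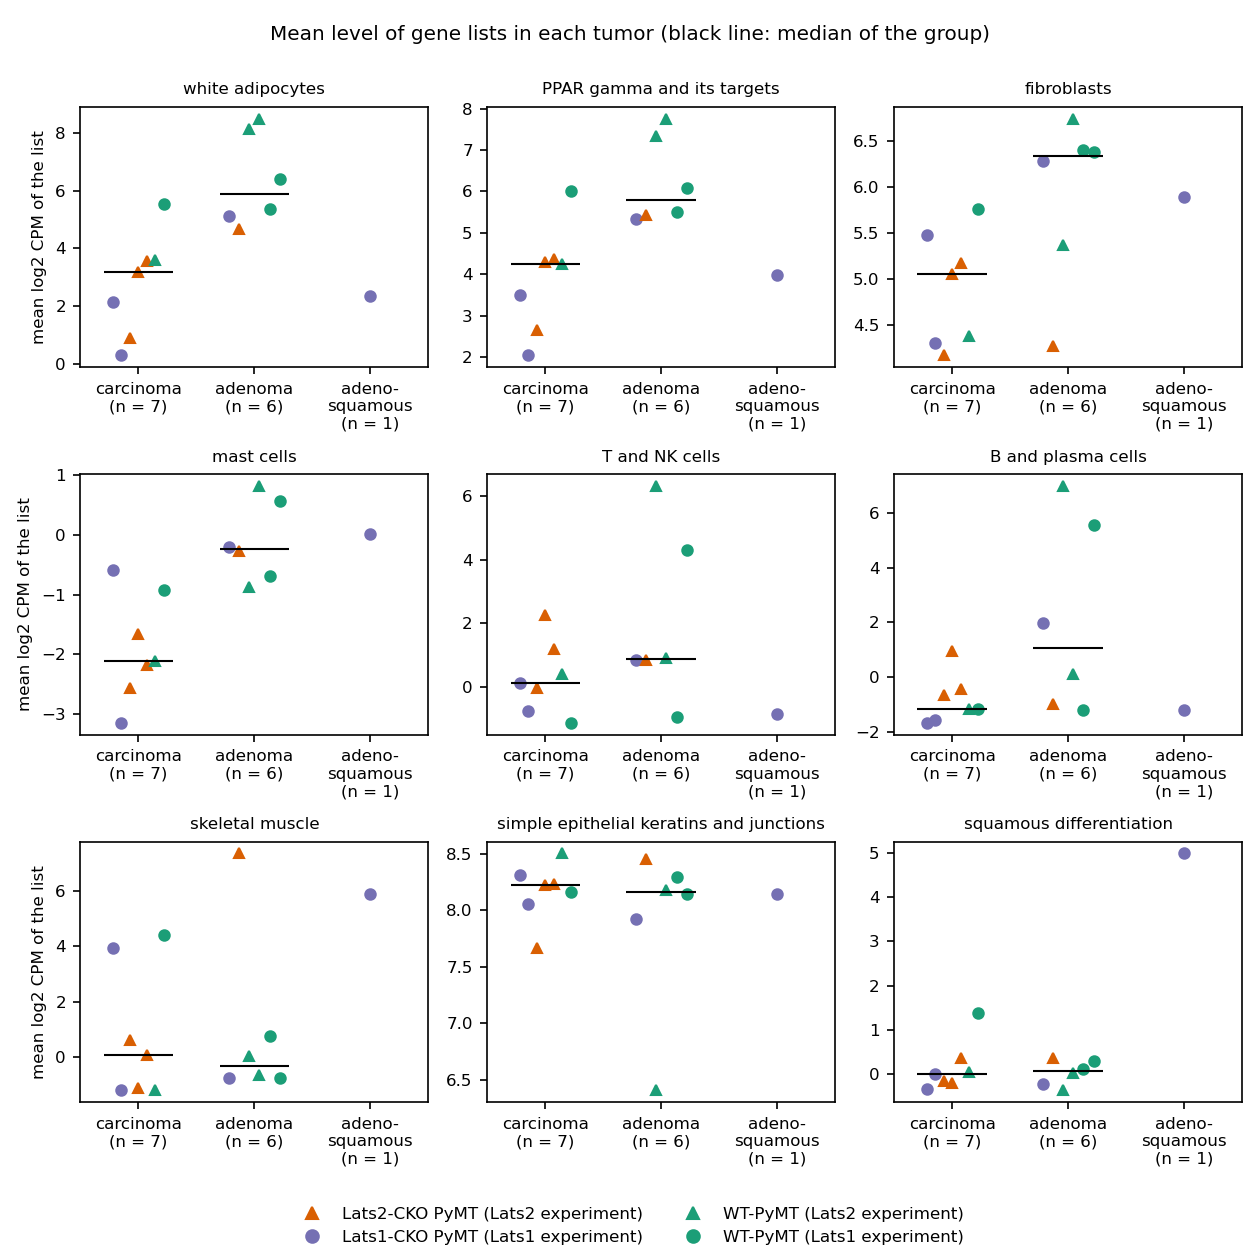
Mean log2 CPM (y axis) of 9 gene lists in each tumor, for 7 carcinomas, 6 adenomas and the adenosquamous tumor. Colors give the genotype, triangles the *Lats2* and circles the *Lats1* experiment, and black lines the group medians. White adipocyte genes lay at 0.30 to 5.55 in carcinomas and at 4.67 to 8.49 in adenomas, whereas lymphocyte genes were high in the adenomas WT-PyMT 14 and WT-PyMT 22 and skeletal muscle genes highest in the adenoma *Lats2*-CKO 7.

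Among the secreted products of fat cells, *Adipoq*, which encodes the hormone adiponectin (chromosome 16, 23146536 to 23157968), had 0.0492 to 42.7 CPM (median 6.93) in carcinomas, against 24.4 to 692 CPM (median 79.6) in adenomas. All carcinomas but WT-PyMT 17 were below every adenoma, and that tumor, at 42.7 CPM, was above *Lats2*-CKO 7 only. Its fold change was -3.25 ± 1.03 (adjusted p = 0.0474 by DESeq2). *Lep*, the leptin gene whose promoter is printed above (chromosome 6, 29060221 to 29073876), had 0 to 4.04 CPM (median 1.67) in carcinomas, against 2.56 to 139 CPM (median 12.2) in adenomas. The highest adenoma was WT-PyMT 2, and the *Lats2*-CKO carcinomas 8 and 16 were above the lowest adenoma. The fold change was -3.41 ± 1.31 (adjusted p = 0.0480 by DESeq2). *Retn*, for resistin, had 0.0492 to 8.06 CPM (median 0.545) in carcinomas, against 2.66 to 244 CPM (median 30.2) in adenomas (fold change -3.64 ± 1.03, adjusted p = 0.00134 by DESeq2). *Cfd*, for the complement protease adipsin, which fat cells secrete in bulk, had 0.394 to 136 CPM (median 20.4) in carcinomas, against 118 to 1946 CPM (median 356) in adenomas (fold change -3.74 ± 1.04, adjusted p = 0.00587 by DESeq2). For both genes the carcinomas overlapped with the adenomas through WT-PyMT 17 alone.

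The lipid droplet proteins followed. *Plin1*, which coats the droplet and guards it against lipases, had 0 to 26.9 CPM (median 2.49) in carcinomas, against 5.65 to 189 CPM (median 30.3) in adenomas (fold change -2.88 ± 1.11, adjusted p = 0.120 by DESeq2). *Plin4*, a further coat protein, had 1.48 to 45.7 CPM (median 9.78) in carcinomas, against 24.2 to 493 CPM (median 64.9) in adenomas (fold change -2.29 ± 0.85, adjusted p = 0.106 by DESeq2). *Cidec*, which fuses droplets into 1, had a fold change of -3.00 ± 1.02 (adjusted p = 0.0759 by DESeq2), and none of these 3 genes was called by DESeq2. Of the lipases, *Lipe*, the hormone-sensitive lipase, had 11.3 to 60.7 CPM (median 23.8) in carcinomas, against 28.4 to 333 CPM (median 71.6) in adenomas (fold change -1.34 ± 0.44), and *Pnpla2*, which takes the first fatty acid off a triglyceride, had 192 ± 38.9 CPM in carcinomas and 326 ± 158 CPM in adenomas (mean ± SD, fold change -0.46, adjusted p = 0.536 by DESeq2). *Fabp4*, the fatty acid carrier of fat cells, had 3.15 to 338 CPM (median 25.6) in carcinomas, against 112 to 2249 CPM (median 406) in adenomas (fold change -2.82 ± 0.90, adjusted p = 0.0299 by DESeq2). *Adrb3*, the receptor through which noradrenaline starts lipolysis, and *Hcar1*, the lactate receptor that restrains it, were named after their values were seen. *Adrb3* had 0.0492 to 9.75 CPM (median 0.553) in carcinomas, against 6.07 to 101 CPM (median 15.1) in adenomas (fold change -3.51 ± 0.93, adjusted p = 0.00249 by DESeq2) and *Hcar1* had 0 to 2.99 CPM (median 0.587) in carcinomas, against 1.47 to 32.6 CPM (median 3.93) in adenomas (fold change -2.78 ± 0.87, adjusted p = 0.0256). Receptors on both sides of that control were thus called lower.

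PPARγ and its targets shared many of these genes. Of 18 measured, 17 had a fold change below 0 (57.5% of all genes did), with a median of -1.70. At an unadjusted p under 0.05, 11 were lower (2.94% of all genes), of which 8 also stand in the white adipocyte list. The median ran from -2.61 without WT-PyMT 17 to -1.11 without WT-PyMT 1. *Pparg*, the receptor itself (chromosome 6, 115360879 to 115490404), had 0.836 to 9.29 CPM (median 1.37) in carcinomas, against 2.47 to 40.2 CPM (median 11.2) in adenomas. The carcinomas above the lowest adenomas included WT-PyMT 17 with 9.29 CPM, and the fold change was -1.57 ± 0.69 (adjusted p = 0.297 by DESeq2). *Cebpa*, its partner among the C/EBP factors and a gene of epithelium as well, was higher in level and less different, with 49.9 to 95.1 CPM (median 72.4) in carcinomas, against 63.4 to 227 CPM (median 89.9) in adenomas (fold change -0.33 ± 0.22, adjusted p = 0.726 by DESeq2). *Scd1*, the desaturase that makes oleate, had 419 to 2905 CPM (median 2279) in carcinomas, against 1247 to 14843 CPM (median 4072) in adenomas (fold change -1.02 ± 0.37, adjusted p = 0.197 by DESeq2), and *Rxra*, the partner receptor of PPARγ, was the 1 member above 0, at 0.21. *Plin2*, a lipid droplet protein that epithelium also uses, had a fold change nearer to 0 (-0.57) than *Adipoq* or *Fabp4*.

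Fatty acid synthesis, which mammary epithelium also performs, differed less. Of 15 genes, 11 had a fold change below 0 (57.5% of all genes did), with a median of -0.35. At an unadjusted p under 0.05, 3 were lower (2.94% of all genes). These were *Scd1* above, *Dgat2*, the last enzyme of triglyceride synthesis, with 3.48 to 65.3 CPM (median 12.8) in carcinomas, against 20.7 to 619 CPM (median 82.5) in adenomas (fold change -1.89 ± 0.67), and *Acaca*, which makes malonyl-CoA, with 22.2 to 101 CPM (median 34.7) in carcinomas, against 44.7 to 259 CPM (median 86.1) in adenomas (fold change -0.82 ± 0.32). *Acly*, which splits citrate into acetyl-CoA, had 367 to 802 CPM (median 445) in carcinomas, against 437 to 1182 CPM (median 761) in adenomas (fold change -0.36 ± 0.21, adjusted p = 0.690 by DESeq2), and *Acacb*, the mitochondrial counterpart of *Acaca*, had 12.4 to 117 CPM (median 44.9) in carcinomas, against 20.6 to 159 CPM (median 60.6) in adenomas (fold change -0.16 ± 0.41). *Thrsp*, a regulator of lipogenesis in fat and mammary gland that stands in the white adipocyte list, had 221 to 835 CPM (median 295) in carcinomas, against 249 to 945 CPM (median 785) in adenomas (fold change -0.77 ± 0.31). *Srebf1*, the transcription factor that drives the pathway, was on the other side, at 0.64. Brown adipocyte genes had a median of -0.74 with 1 of 10 lower at p under 0.05 (2.94% of all genes). *Ucp1*, the uncoupling protein that defines that cell, had 0.0345 to 168 CPM (median 0.0966) in carcinomas, against 0.0949 to 54.4 CPM (median 9.46) in adenomas (fold change -1.39 ± 1.68). The highest *Ucp1* value belonged to the carcinoma WT-PyMT 17, and *Cidea* was likewise highest there, at 58.8 CPM.

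The 10 genes lower in carcinomas with the smallest p, among genes of at least 1 CPM on the same side in all 4 groups, had fold changes from -3.91 to -0.87. *Agmo*, which cleaves ether lipids (chromosome 12, 37241639 to 37581932), headed them, with 0.778 to 3.02 CPM (median 1.63) in carcinomas, against 2.96 to 11.6 CPM (median 4.43) in adenomas. Only the adenoma *Lats1*-CKO 27 was below the highest carcinoma, WT-PyMT 1. The fold change was -1.44 ± 0.27 (adjusted p = 1.45e-04 by DESeq2), and it lay between -1.73 and -1.28 when each tumor was left out in turn. *Ppp1r1a*, an inhibitor of protein phosphatase 1 (chromosome 15, 103530279 to 103538027), had 0.0322 to 1.04 CPM (median 0.148) in carcinomas, against 0.641 to 17.8 CPM (median 3.65) in adenomas (fold change -3.47 ± 0.77, adjusted p = 0.00144). *Inmt*, which methylates indolamines, had 0 to 0.467 CPM (median 0.0458) in carcinomas, against 0.0986 to 5.62 CPM (median 2.51) in adenomas (fold change -3.91 ± 0.94, adjusted p = 0.00772). *Ces1f*, a carboxylesterase with near-identical neighbors in the mouse genome, so that its counts are uncertain, had 0 to 2.15 CPM (median 0.138) in carcinomas, against 1.30 to 39.0 CPM (median 5.71) in adenomas (fold change -3.89 ± 1.01). *Fxyd1*, a regulator of the sodium pump, had 0.778 to 4.72 CPM (median 1.17) in carcinomas, against 4.29 to 23.9 CPM (median 9.33) in adenomas (fold change -2.21 ± 0.56, adjusted p = 0.0133). In each of the genes of this paragraph, the carcinomas reached into the adenoma range with 1 or more tumors.

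*Clec3b*, *Efemp1* and *Ifi205* were lower in every carcinoma than in every adenoma. *Clec3b* encodes tetranectin, a plasminogen-binding protein of connective tissue (chromosome 9, 123150946 to 123157432), and had 0.246 to 3.19 CPM (median 1.59) in carcinomas, against 3.55 to 27.7 CPM (median 12.1) in adenomas (fold change -2.44 ± 0.54, adjusted p = 7.98e-04 by DESeq2). *Efemp1*, for the matrix glycoprotein fibulin-3, had 0.419 to 4.26 CPM (median 0.933) in carcinomas, against 5.44 to 33.7 CPM (median 9.10) in adenomas (fold change -2.64 ± 0.68, adjusted p = 0.0113). *Ifi205*, of a cluster of near-identical interferon-inducible genes and therefore uncertain, had 0.197 to 2.49 CPM in carcinomas, against 3.37 to 9.78 CPM in adenomas (fold change -2.12 ± 0.56). The chemokine *Ccl6* had 3.30 to 12.8 CPM (median 8.03) in carcinomas, against 10.8 to 25.6 CPM (median 20.5) in adenomas (fold change -1.26 ± 0.33, adjusted p = 0.0444). *Tppp3*, which binds tubulin and marks tendon and sheath cells, had 3.98 to 11.3 CPM (median 5.49) in carcinomas, against 7.64 to 16.1 CPM (median 12.2) in adenomas (fold change -0.87 ± 0.23), and its highest carcinoma was again WT-PyMT 17.

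**Figure D2:**
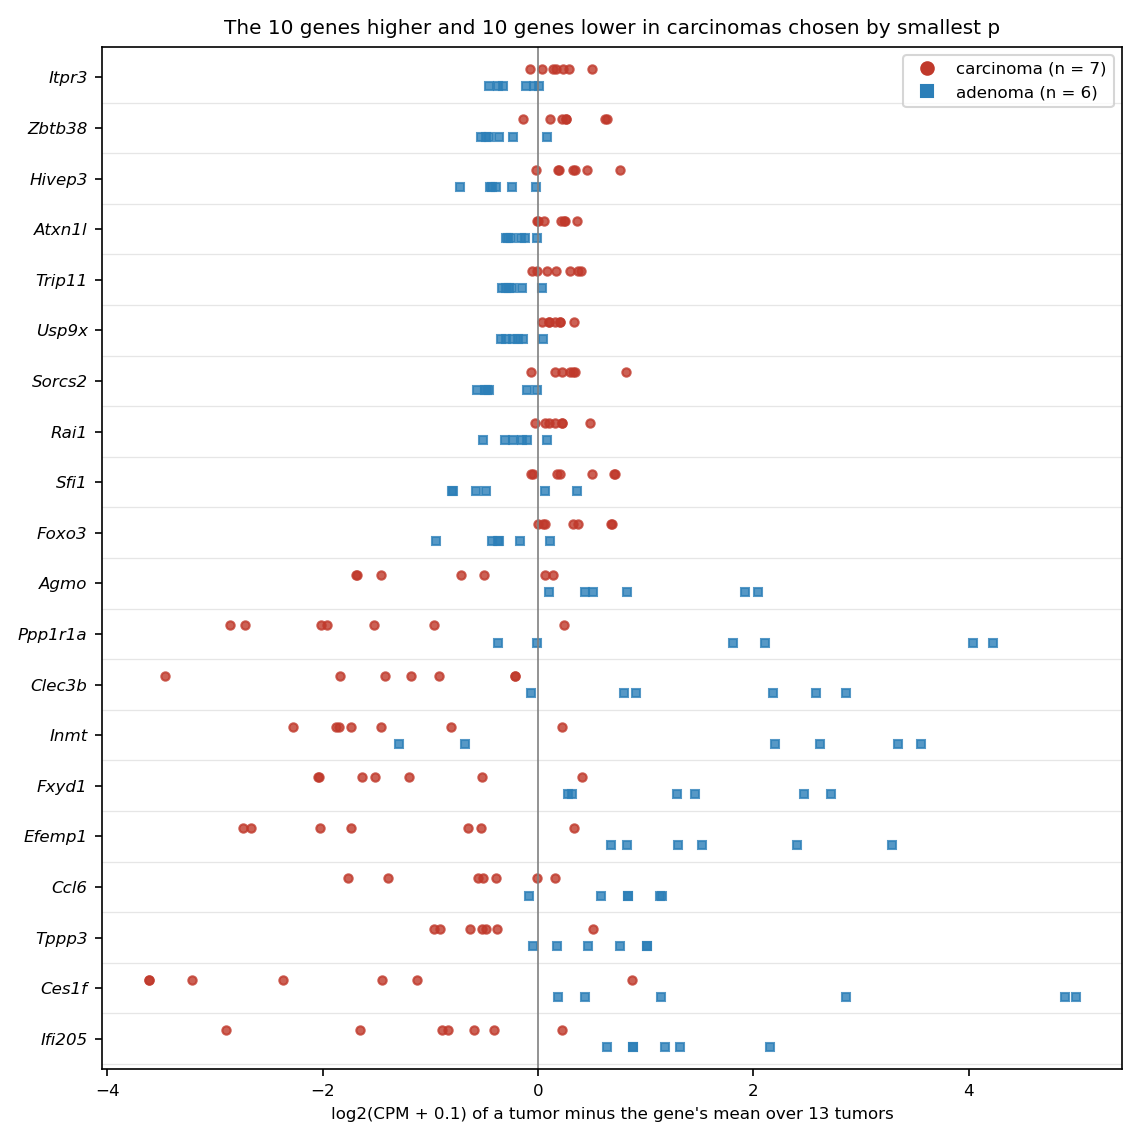
log2(CPM + 0.1) of each tumor minus the gene's mean over the 13 tumors (x axis), for the 10 genes higher and the 10 genes lower in carcinomas with the smallest p (rows), carcinomas as circles above adenomas as squares. The lower genes spread over several log2 units, and carcinomas and adenomas of *Clec3b*, *Efemp1* and *Ifi205* did not overlap, whereas the higher genes differed by log2 fold changes of 0.28 to 0.80.

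Beyond these, 17 further genes had every carcinoma below every adenoma (20 of 13847 in all, 0.144%), and none of the 20 stands in the white adipocyte, PPARγ, fibroblast or macrophage list. The following were picked from them after their values were seen. *Adh1*, which oxidizes retinol and ethanol, had 0 to 1.11 CPM (median 0.462) in carcinomas, against 1.23 to 36.1 CPM (median 5.70) in adenomas (fold change -3.26 ± 0.86, adjusted p = 0.00285 by DESeq2). *Sncg*, for γ-synuclein, a protein of neurons and fat cells, had 0.590 to 5.45 CPM (median 2.42) in carcinomas, against 5.55 to 164 CPM (median 21.4) in adenomas (fold change -2.90 ± 0.87, adjusted p = 0.0140). *Sfrp4*, a secreted Wnt antagonist, had 0.0492 to 0.652 CPM (median 0.419) in carcinomas, against 0.712 to 6.77 CPM (median 1.84) in adenomas (fold change -2.30 ± 0.61, adjusted p = 0.0174). *Gsn*, the actin-severing protein gelsolin, was the most abundant, with 74.6 to 143 CPM (median 129) in carcinomas, against 159.9 to 2109 CPM (median 346) in adenomas (fold change -1.50 ± 0.50, adjusted p = 0.0896). *Clec10a*, a lectin of macrophages and dendritic cells, had 0.386 to 4.01 CPM (median 2.06) in carcinomas, against 5.22 to 18.7 CPM (median 10.3) in adenomas (fold change -2.02 ± 0.56, adjusted p = 0.0263). The adenoma levels ran over a wider range than the carcinoma levels in each of these 5 genes, and DESeq2 called 4 of them, *Gsn* being the exception.

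Fibroblast genes all had fold changes below 0 (12 of 12, beside 57.5% of all genes, median -0.78), but 2 were lower at an unadjusted p under 0.05 (2.94% of all genes). These were *Dpt*, for dermatopontin of fat and skin fibroblasts, with 0.344 to 15.3 CPM (median 4.77) in carcinomas, against 13.2 to 176 CPM (median 36.9) in adenomas (fold change -2.68 ± 0.85, adjusted p = 0.0492 by DESeq2), and *Fap*, a surface protease of activated fibroblasts, with 2.66 to 5.10 CPM (median 3.24) in carcinomas, against 2.42 to 12.6 CPM (median 7.61) in adenomas (fold change -0.88 ± 0.34, adjusted p = 0.227 by DESeq2). *Pdgfra*, the growth factor receptor that marks fibroblasts, was close to 0, with 12.8 to 33.0 CPM (median 25.2) in carcinomas, against 9.87 to 52.2 CPM (median 27.6) in adenomas (fold change -0.20 ± 0.39), and *Dcn*, for the proteoglycan decorin, had 7.31 to 139.6 CPM (median 51.4) in carcinomas, against 34.6 to 264 CPM (median 118) in adenomas (fold change -0.90 ± 0.73). The fibrillar collagens, which fibroblasts lay down, had 88.6 to 547 CPM (median 196) in carcinomas, against 57.5 to 489 CPM (median 408) in adenomas for *Col1a1* (fold change -0.16 ± 0.52) and 121 to 653 CPM (median 247) in carcinomas, against 118 to 1314 CPM (median 849) in adenomas for *Col3a1* (fold change -0.78 ± 0.65), with 0 of 17 matrix genes past p 0.05 and a median of -0.22. Basement membrane genes had a median of 0.07 (0 of 15), and *Col4a1*, its main collagen, had 205 to 1643 CPM (median 339) in carcinomas, against 54.4 to 1573 CPM (median 316) in adenomas. The list of matrix proteases also held none past p 0.05 (0 of 18), with 0.886 to 11.042 CPM (median 5.08) in carcinomas, against 3.87 to 27.4 CPM (median 13.6) in adenomas for the stromelysin *Mmp3* (fold change -1.55 ± 0.73, adjusted p = 0.376 by DESeq2) and 48.4 to 345 CPM (median 59.4) in carcinomas, against 25.7 to 169 CPM (median 78.7) in adenomas for the gelatinase *Mmp2* (fold change -0.22 ± 0.64). The fibroblast list was not on the same side in all groups, since the *Lats2*-CKO carcinomas had means of 4.16 to 5.18 log2 CPM, against 4.27 log2 CPM in the lone *Lats2*-CKO adenoma.

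Among 9 Schwann cell and nerve genes, 1 was lower in carcinomas at p under 0.05 (2.94% of all genes). *Mbp*, a myelin gene that other cells also express, had a fold change of -0.18 ± 0.26.

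The genes of mast cells, which reside in connective tissue and fat, were at low levels in all tumors and had fold changes below 0. Of 5 genes measured (*Ms4a2* and *Fcer1a* were not analysed here), 5 had fold changes below 0 (57.5% of all genes did), with a median of -2.29. Of these, 4 had p under 0.05 (2.94% of all genes were lower at that p). *Cpa3*, the mast cell carboxypeptidase, had 0 to 0.366 CPM (median 0.142) in carcinomas, against 0.325 to 1.30 CPM (median 0.630) in adenomas (fold change -2.29 ± 0.79, adjusted p = 0.244 by DESeq2). *Cma1*, a chymase, had 0 to 0.549 CPM (median 0.156) in carcinomas, against 0.406 to 2.05 CPM (median 0.652) in adenomas (fold change -2.06 ± 0.77), and *Mcpt4*, a further chymase, had 0 to 0.767 CPM (median 0.107) in carcinomas, against 0.217 to 2.42 CPM (median 1.15) in adenomas (fold change -2.50 ± 0.99). *Tpsb2*, a tryptase, had 0 to 0.641 CPM (median 0.138) in carcinomas, against 0.739 to 2.27 CPM (median 0.846) in adenomas (fold change -2.34 ± 0.77), with no overlap between the groups. Means under 2 CPM rest on few reads, and DESeq2 called none of the 4 (adjusted p between 0.141 and 0.331).

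Macrophage genes had a median near 0 (-0.03, 1 of 14 lower at p under 0.05, beside 2.94% of all genes). *Adgre1*, for F4/80, had 11.2 to 38.0 CPM (median 20.5) in carcinomas, against 11.4 to 32.9 CPM (median 18.0) in adenomas (fold change -0.11 ± 0.27), *Csf1r*, the receptor on which macrophages depend, had 57.0 to 148 CPM (median 76.0) in carcinomas, against 59.8 to 98.1 CPM (median 77.5) in adenomas (fold change -0.02 ± 0.22), and *Cd68*, a lysosomal protein, had 19.9 to 39.6 CPM (median 23.7) in carcinomas, against 23.3 to 30.6 CPM (median 27.4) in adenomas (fold change -0.26 ± 0.17). The 1 lower gene was *Mrc1*, the mannose receptor of resident macrophages, with 4.38 to 15.5 CPM (median 8.05) in carcinomas, against 7.69 to 43.7 CPM (median 23.6) in adenomas (fold change -1.32 ± 0.54, adjusted p = 0.293 by DESeq2). Other list members found on resident or alternatively activated macrophages did not pass p 0.05, with fold changes of -0.84 for *Folr2*, -0.59 for *Cd163*, -0.49 for *Mertk* and 0.64 for *Arg1*. The lectin *Mgl2*, a neighbor of *Clec10a* outside the list and named after its values were seen, had 0.451 to 4.37 CPM (median 0.960) in carcinomas, against 2.37 to 14.3 CPM (median 7.51) in adenomas (fold change -2.05 ± 0.59, adjusted p = 0.0354 by DESeq2). *Lyve1*, found on lymphatic vessels and on resident macrophages, had 0.0492 to 1.69 CPM (median 0.427) in carcinomas, against 0.475 to 9.04 CPM (median 2.39) in adenomas (fold change -1.80 ± 0.77, adjusted p = 0.337 by DESeq2), whereas *Prox1*, the transcription factor of lymphatic endothelium, had 1.56 to 4.59 CPM (median 2.26) in carcinomas, against 1.04 to 3.46 CPM (median 2.51) in adenomas (fold change 0.35 ± 0.35). Neutrophil genes had a median of 0.07 with 0 of 10 past p 0.05 (*Ly6g* and *Retnlg* were not analysed here), and *S100a8*, abundant in neutrophils, had 7.11 to 13.048 CPM (median 11.2) in carcinomas, against 1.87 to 33.6 CPM (median 9.60) in adenomas (fold change -0.17 ± 0.46). Endothelial genes had a median of -0.47 with 0 of 14, and *Pecam1* had 10.026 to 42.1 CPM (median 30.3) in carcinomas, against 12.0 to 219 CPM (median 57.5) in adenomas (fold change -0.78 ± 0.73). Pericyte genes (median -0.39, 0 of 8) and erythroid genes (median 1.02, 0 of 3) held none past p 0.05 either, and of 12 dendritic cell and MHC class II genes (median -0.63) 1 was lower, *Xcr1*, a chemokine receptor of cross-presenting dendritic cells (fold change -2.01).

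Lymphocyte genes had the lowest medians of all lists, and WT-PyMT 14 and WT-PyMT 22 were the highest adenomas in both lists. The carcinoma mean minus the adenoma mean of B and plasma cell genes was also below 0 in *Lats1*-CKO tumors, at -3.61 log2 CPM. That group holds neither of these adenomas. The difference was 0.93 in *Lats2*-CKO tumors, -3.38 in WT-PyMT tumors of the *Lats1* experiment and -4.74 in those of the *Lats2* experiment. B and plasma cell genes had a median of -5.94 with 4 of 12 lower at p under 0.05 and 6 called lower by DESeq2. T and NK cell genes had a median of -2.92 with 0 of 17 at that p and 1 called lower. Of all genes, 2.94% were lower at that p and 0.532% of those with an adjusted p were called lower. *Ms4a1*, for CD20 of B cells, had 0 to 0.545 CPM (median 0.0356) in carcinomas, against 0 to 240.1 CPM (median 1.49) in adenomas. It was at 240.1 CPM in WT-PyMT 14 and 60.5 CPM in WT-PyMT 22, whereas the other 4 adenomas held at most 2.76 CPM. *Cd3e* of the T cell receptor complex had 0.384 to 7.82 CPM (median 0.870) in carcinomas, against 0.325 to 262 CPM (median 2.103) in adenomas (adjusted p = 0.285 by DESeq2), with the same 2 adenomas on top. *Cr2*, *Ccl19* and *Glycam1*, which mark follicular dendritic cells, stromal cells and high endothelial venules of lymph nodes, were named after their values were seen. *Cr2* is itself a member of the B and plasma cell list, so that it adds nothing separate to that list. *Cr2* had 0 to 0.156 CPM (median 0.0644) in carcinomas, against 0 to 225 CPM (median 1.15) in adenomas, *Ccl19* had 0 to 0.739 CPM (median 0.142) in carcinomas, against 0.0475 to 104 CPM (median 0.716) in adenomas, and *Glycam1*, which lactating mammary epithelium also makes, had 0.213 to 204 CPM (median 0.836) in carcinomas, against 0.633 to 1344 CPM (median 264) in adenomas. The highest *Glycam1* value, 1344 CPM, was that of *Lats2*-CKO 7, whose B and plasma cell genes had a mean of -0.98 log2 CPM. That mean lay within the -1.68 to 0.96 log2 CPM of the carcinomas. Without WT-PyMT 14 and WT-PyMT 22, an alternative added after the data were seen, the median was -1.79 for B and plasma cells and -0.25 for T and NK cells, whereas that of white adipocytes was -2.96. Of the 63 genes of at least 1 CPM called lower by DESeq2, 7 stood in the lymphocyte lists and 6 in the white adipocyte list, and 48 were lower in all 4 groups. The highest adenoma was WT-PyMT 2 for 33 of them and WT-PyMT 14 for 23.

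**Figure D3:**
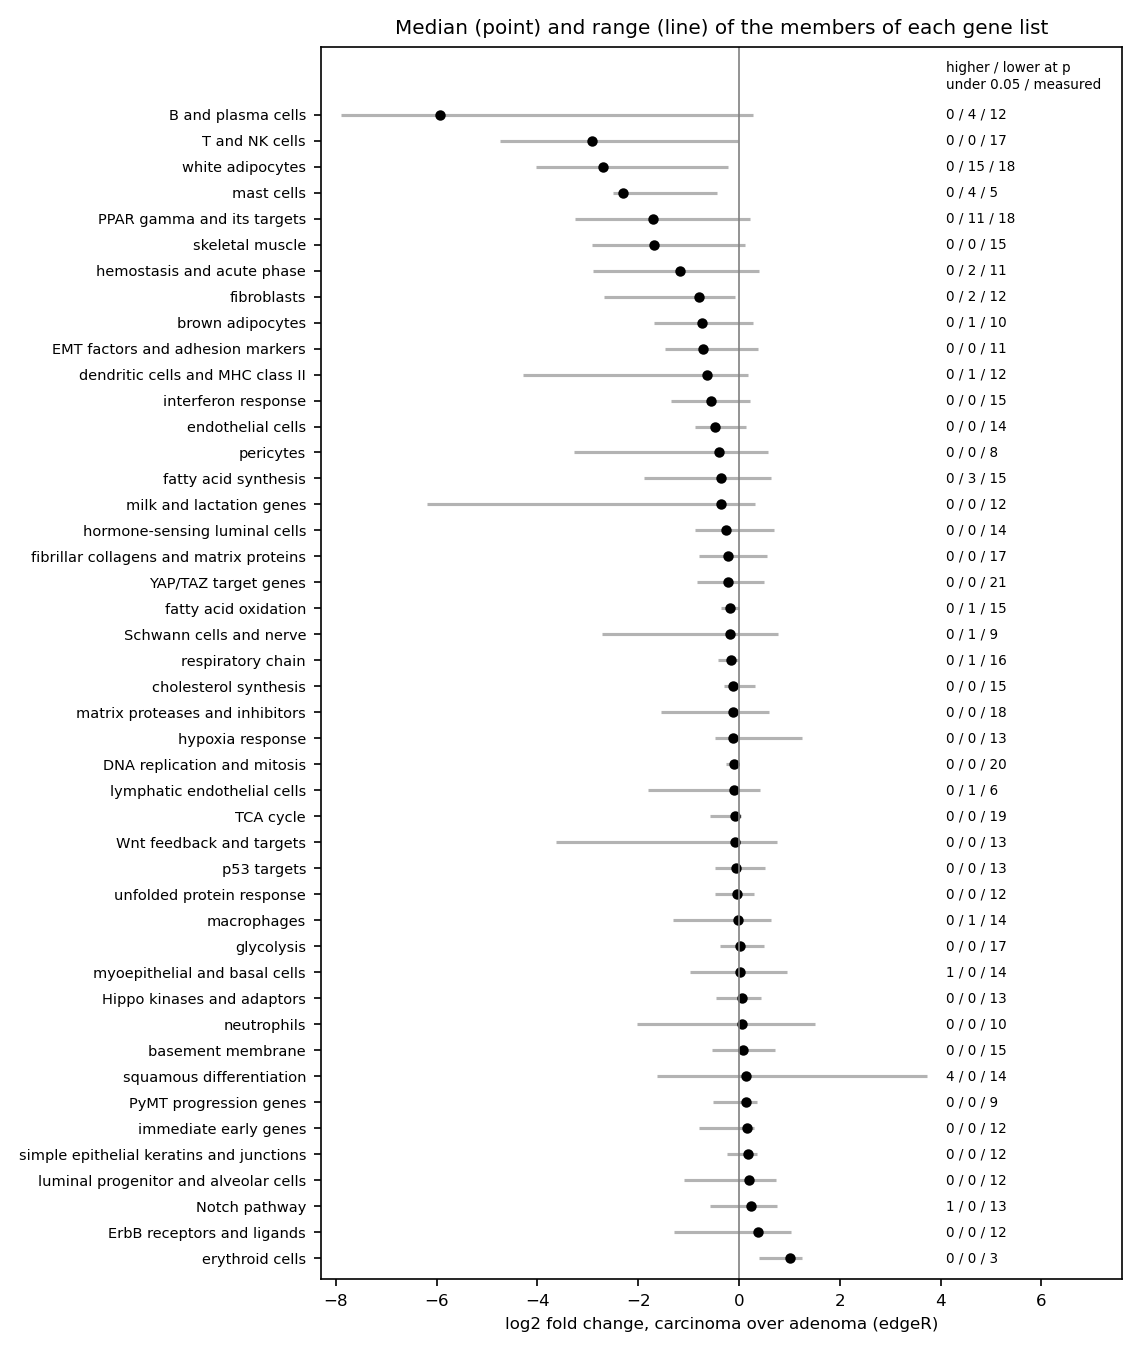
Median (point) and range (line) of the log2 fold changes of carcinoma over adenoma (x axis, edgeR) over the measured members of 45 gene lists (rows), with the numbers past p 0.05 in each direction and the number measured. Genes past p 0.05 and lower in carcinomas numbered 15 of 18 for white adipocytes, 11 of 18 for PPARγ targets, 4 of 5 for mast cells and 4 of 12 for B and plasma cells, and most tumor cell programs lay near 0.

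Of the genes of at least 1 CPM, DESeq2 called 15 higher in carcinomas, with fold changes from 0.18 to 3.51 (median 0.38), of which 14 were higher in all 4 groups. The one with the largest fold change, *2310057J18Rik*, was not higher in all 4 groups and overlapped between carcinomas and adenomas. It had 253 ± 315 CPM in carcinomas and 34.7 ± 35.1 CPM in adenomas (mean ± SD, fold change 3.51 ± 1.39, adjusted p = 0.0336 by DESeq2). The 10 genes with the smallest p, among those of at least 1 CPM on the same side in all 4 groups, had fold changes from 0.28 to 0.80. *Itpr3*, the inositol trisphosphate receptor that lets calcium out of the endoplasmic reticulum (chromosome 17, 27057002 to 27122223), had 227 to 338 CPM (median 269) in carcinomas, against 174 to 240.1 CPM (median 206) in adenomas. The adenomas WT-PyMT 20 and WT-PyMT 22 reached into the carcinoma range, and the means were 273 ± 35.6 CPM in carcinomas and 207 ± 27.5 CPM in adenomas (SD). The fold change was 0.48 ± 0.11 (adjusted p = 0.00300 by DESeq2), and it lay between 0.41 and 0.55 when each tumor was left out in turn. *Zbtb38*, a zinc finger protein that binds methylated DNA, had 30.0 to 51.5 CPM (median 39.6) in carcinomas, against 22.9 to 35.0 CPM (median 24.966) in adenomas (fold change 0.55 ± 0.13, adjusted p = 0.0170). *Hivep3*, a large zinc finger protein, had 24.1 to 41.4 CPM (median 30.5) in carcinomas, against 14.7 to 24.1 CPM (median 18.4) in adenomas (fold change 0.66 ± 0.16, adjusted p = 0.0252). *Atxn1l*, a partner of the repressor capicua, had 85.0 to 110.3 CPM (median 99.1) in carcinomas, against 69.8 to 85.1 CPM (median 74.3) in adenomas (fold change 0.28 ± 0.0715, adjusted p = 0.00400). The highest adenoma and the lowest carcinoma were nearly equal in both of the last genes.

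*Usp9x*, a deubiquitinase, had 166 to 203 CPM (median 180.5) in carcinomas, against 128 to 167 CPM (median 139.7) in adenomas (fold change 0.30 ± 0.0785, adjusted p = 0.00870 by DESeq2), and *Trip11*, a Golgi protein, had 48.3 to 66.1 CPM (median 56.4) in carcinomas, against 39.9 to 51.6 CPM (median 42.1) in adenomas (fold change 0.38 ± 0.0974, adjusted p = 0.0208). *Rai1*, a chromatin reader, had 95.1 to 135 CPM (median 108) in carcinomas, against 67.7 to 103 CPM (median 84.8) in adenomas (fold change 0.32 ± 0.0854, adjusted p = 0.0380). *Foxo3*, a forkhead factor held in check by AKT, had 36.6 to 59.1 CPM (median 45.9) in carcinomas, against 18.9 to 39.7 CPM (median 28.4) in adenomas (fold change 0.52 ± 0.14, adjusted p = 0.0785), and *Sorcs2*, a sorting receptor, had 31.3 to 57.8 CPM (median 40.2) in carcinomas, against 22.046 to 32.5 CPM (median 23.7) in adenomas (fold change 0.66 ± 0.18, adjusted p = 0.0548). DESeq2 did not call the last 2. *Sfi1*, which sits at centrioles and has copies in the mouse genome that make its counts uncertain, had 83.2 to 143 CPM (median 100.2) in carcinomas, against 50.1 to 111 CPM (median 60.4) in adenomas (fold change 0.80 ± 0.21, adjusted p = 0.0492). In all, DESeq2 called 15 genes of at least 1 CPM higher, of which 14 were higher in all 4 groups and 2, *Hmbox1* and *Tfip11*, had every carcinoma above every adenoma.

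Those 2 and the genes of the next paragraph were named after their values were seen, from the 38 of 13847 genes (0.274%) whose carcinomas all lay above all adenomas. *Hmbox1*, a homeobox protein that binds telomeres, had 16.8 to 20.9 CPM (median 19.7) in carcinomas, against 10.9 to 15.6 CPM (median 12.4) in adenomas (fold change 0.52 ± 0.14, adjusted p = 0.0208 by DESeq2). *Tfip11*, of the spliceosome, had 56.5 to 68.971 CPM (median 61.1) in carcinomas, against 48.0 to 52.6 CPM (median 50.9) in adenomas (fold change 0.27 ± 0.0783, adjusted p = 0.0182). The gap between the groups was narrow in both, with *Hmbox1* at 16.8 CPM in the lowest carcinoma against 15.6 CPM in the highest adenoma, and *Tfip11* at 56.5 CPM in the lowest carcinoma against 52.6 CPM in the highest adenoma.

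The list of simple epithelial keratins and junctions had 0 of 12 genes past p 0.05 and none among the 38, and the genes given here were picked one by one. *Pard3*, a scaffold of the apical polarity complex (chromosome 8, 127063381 to 127612286), had 82.4 to 94.4 CPM (median 88.0) in carcinomas, against 20.3 to 81.8 CPM (median 75.4) in adenomas (fold change 0.34 ± 0.26, adjusted p = 0.770 by DESeq2). Its lowest value was that of WT-PyMT 14, the adenoma with the lowest level of epithelial keratins and junction genes, and the other 5 adenomas lay between 58.6 and 81.8 CPM. *Dlg5*, a further polarity scaffold, had 107 to 147 CPM (median 130.3) in carcinomas, against 32.3 to 106 CPM (median 94.4) in adenomas (fold change 0.48 ± 0.24, adjusted p = 0.596 by DESeq2). *Ctnna1*, for α-catenin of adherens junctions, had 415 to 515 CPM (median 473) in carcinomas, against 215 to 412 CPM (median 398) in adenomas (fold change 0.30 ± 0.15). *Amotl1*, an angiomotin that holds YAP at junctions, had 287 to 338 CPM (median 313) in carcinomas, against 78.4 to 274 CPM (median 248) in adenomas (fold change 0.40 ± 0.23, adjusted p = 0.678 by DESeq2). WT-PyMT 14 was the lowest adenoma in each of these 4 genes. *Abl1*, a tyrosine kinase that acts on actin, had 212 to 256 CPM (median 215) in carcinomas, against 127 to 200.3 CPM (median 177) in adenomas (fold change 0.36 ± 0.11, adjusted p = 0.177 by DESeq2), and *Arhgap35*, which turns off RhoA, had 171 to 216 CPM (median 205) in carcinomas, against 77.0 to 167 CPM (median 156) in adenomas (fold change 0.41 ± 0.17, adjusted p = 0.474 by DESeq2). With the mean lymphocyte level as a further covariate, the fold changes were 0.05 for *Pard3*, 0.26 for *Dlg5*, 0.15 for *Ctnna1*, 0.15 for *Amotl1* and 0.28 for *Abl1*, against 0.50 for *Hmbox1* and 0.29 for *Tfip11*.

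Transcript length moved with the direction of the difference. The longest annotated transcript had a median of 7348 bases among the 15 genes called higher by DESeq2 at 1 CPM or more and 2084 bases among the 63 called lower, beside 3393.5 bases over the 13374 of 13847 genes with an annotated length. The same held at an unadjusted p under 0.05 in edgeR, with 5391.5 bases for 240 higher genes and 2728 bases for 315 lower genes, and without overlap, with 5322.5 and 2038 bases. The part of transcript length in these differences was not tested.

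Simple epithelial keratins and junction genes differed by less than their spread (10 of 12 fold changes above 0, median 0.19, 0 past p 0.05). *Krt8* had 504 to 769 CPM (median 583) in carcinomas, against 151 to 797 CPM (median 604) in adenomas (fold change 0.18 ± 0.31) and its partner *Krt18* had 617 to 1059.9 CPM (median 781) in carcinomas, against 293 to 1035 CPM (median 859) in adenomas (fold change 0.04 ± 0.27). The lower end of the adenomas was WT-PyMT 14 in both. Luminal progenitor and alveolar genes had a median of 0.19 and 0 of 12 past p 0.05, with 372 to 867 CPM (median 662) in carcinomas, against 179.6 to 1461 CPM (median 604) in adenomas for *Elf5*, the transcription factor of alveolar cells (fold change -0.06 ± 0.37), and 304 to 838 CPM (median 398) in carcinomas, against 201 to 475 CPM (median 422) in adenomas for the receptor *Kit* (fold change 0.25 ± 0.29). Milk genes spread over orders of magnitude: *Csn2*, for β-casein, had 4.09 to 2973 CPM (median 76.8) in carcinomas, against 45.4 to 28052 CPM (median 521) in adenomas (fold change -3.12 ± 2.695, adjusted p = 0.502 by DESeq2), with *Lats2*-CKO 7 at the top. Basal genes had a median of 0.03, with 58.6 to 147 CPM (median 94.9) in carcinomas, against 25.9 to 112 CPM (median 67.9) in adenomas for *Krt5* (fold change 0.56 ± 0.28, adjusted p = 0.585 by DESeq2) and 33.3 to 112 CPM (median 67.3) in carcinomas, against 22.2 to 114 CPM (median 44.7) in adenomas for *Krt14* (fold change 0.40 ± 0.32). *Lgr6*, a receptor of Wnt-responsive progenitors in epithelia, was the single basal gene past p 0.05, with 72.2 to 154 CPM (median 101) in carcinomas, against 13.4 to 127 CPM (median 48.3) in adenomas (fold change 0.96 ± 0.39, adjusted p = 0.393 by DESeq2).

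Hormone receptors, whose loss with progression is known in this model, showed no difference past p 0.05 (0 of 14 hormone-sensing genes, median -0.25). *Esr1*, the estrogen receptor, had 2.84 to 15.6 CPM (median 11.2) in carcinomas, against 7.54 to 37.7 CPM (median 15.5) in adenomas (fold change -0.51 ± 0.31, adjusted p = 0.659 by DESeq2), and its carcinoma mean was below the adenoma mean in all 4 groups. *Pgr*, the progesterone receptor and an estrogen target, had 0.0644 to 19.3 CPM (median 2.07) in carcinomas, against 0.740 to 32.5 CPM (median 3.60) in adenomas (fold change -0.19 ± 1.64). Of the PyMT progression genes as a list, 7 of 9 had fold changes above 0 (median 0.15, 0 past p 0.05), among them *Erbb2*, for the receptor HER2, with 104 to 155 CPM (median 136) in carcinomas, against 35.6 to 122 CPM (median 101) in adenomas (fold change 0.35 ± 0.24, adjusted p = 0.731 by DESeq2), *Csf1*, the macrophage growth factor, with 53.9 to 113 CPM (median 72.5) in carcinomas, against 52.5 to 76.8 CPM (median 63.0) in adenomas (fold change 0.18 ± 0.16), and *Spp1*, for osteopontin, with 1382 to 4339 CPM (median 3086) in carcinomas, against 255 to 10143 CPM (median 1747) in adenomas (fold change 0.03 ± 0.73). ErbB receptors and ligands had 10 of 12 above 0 (median 0.38, 0 past p 0.05), with 0.39 ± 0.30 for *Egfr*, 0.48 ± 0.27 for *Erbb3* and 1.04 for *Erbb4* (adjusted p = 0.489 by DESeq2). In the Notch list, *Notch1* was higher at p under 0.05, with 230.3 to 503 CPM (median 344) in carcinomas, against 219.9 to 347 CPM (median 250.4) in adenomas (fold change 0.50 ± 0.18, adjusted p = 0.295 by DESeq2), and *Notch3* had 82.5 to 282 CPM (median 151) in carcinomas, against 60.7 to 129.6 CPM (median 103) in adenomas (fold change 0.58 ± 0.28, adjusted p = 0.538 by DESeq2). *Notch2* was near 0, at 0.02 ± 0.21.

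Squamous genes had a median fold change of 0.14, and 6 of the 14 measured were at 1 CPM or more. The mean of the list was -0.33 to 1.40 log2 CPM in carcinomas, against -0.35 to 0.36 log2 CPM in adenomas, and 4.99 log2 CPM in the adenosquamous tumor. Of the 14 (*Krt13*, *Flg*, *Sprr1b* and *Sprr2a1* were not analysed here), 4 were higher in carcinomas at p under 0.05 (1.6% of all genes). Their means were 0.0605 to 1.58 CPM in carcinomas and 0 to 0.130 CPM in adenomas. More abundant members, picked after their values were seen, did not pass that p. *Lgals7*, a galectin of stratified epithelium, had 54.7 ± 30.8 CPM in carcinomas and 55.7 ± 45.3 CPM in adenomas (mean ± SD), *Tgm1*, a transglutaminase of the cornified envelope, had 28.2 ± 6.98 CPM in carcinomas and 33.5 ± 19.7 CPM in adenomas, and *Dsc3*, a desmocollin, had 2.55 ± 1.66 CPM in carcinomas and 14.3 ± 23.0 CPM in adenomas. *Krt1*, a keratin of the upper epidermis, had 0.0915 to 9.98 CPM (median 0.195) in carcinomas, against 0 to 0.223 CPM (median 0.112) in adenomas (adjusted p = 0.264 by DESeq2), with WT-PyMT 17 at the top, and *Krt6a*, a keratin of stressed and follicular epithelium, had 0.0458 to 1.23 CPM (median 0.246) in carcinomas, against 0 to 0.406 CPM (median 0.0950) in adenomas (adjusted p = 0.504 by DESeq2). *Krt6b* had 0 to 0.207 CPM (median 0.0384) in carcinomas, against 0 CPM in all 6 adenomas, and *Lor*, for loricrin of the cornified envelope, had 0 to 2.65 CPM (median 0.142) in carcinomas, against 0 to 0.162 CPM (median 0.0631) in adenomas. *Krt10*, the partner of *Krt1*, had 3.57 to 19.3 CPM (median 5.86) in carcinomas, against 2.39 to 5.47 CPM (median 4.51) in adenomas (fold change 0.76 ± 0.35, adjusted p = 0.531 by DESeq2). In the adenosquamous tumor *Krt6a* was at 137 CPM, *Krt1* at 47.2 CPM and *Krt5* at 497 CPM.

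Hair genes stood among the calls. Of the 28 genes under 1 CPM that DESeq2 called lower, 16 were keratins and keratin-associated proteins of the hair shaft and its root sheath, such as *Krt34*, *Krt81*, *Krt72* and *Krtap7-1*. Together they had 0 counts in the 7 carcinomas and 343 in the adenomas, of which 342 were in *Lats2*-CKO 7, and 1 in WT-PyMT 20. Each gene had between 95.8 and 100% of its counts in *Lats2*-CKO 7, so that these calls describe 1 adenoma. Of the other calls under 1 CPM, *Gm11559*, *Gm11562*, *Gm11938* and *Tgm6* had 100% of their counts there, and *Myog* 85.7%. The rest had their highest count in other adenomas. Skeletal muscle genes had means of 4.41 and 3.95 log2 CPM in the carcinomas WT-PyMT 17 and *Lats1*-CKO 14 and of -1.18 to 0.62 log2 CPM in the other 5 carcinomas, against 7.35 log2 CPM in the adenoma *Lats2*-CKO 7 and -0.75 to 0.78 log2 CPM in the other 5 adenomas. The adenosquamous tumor had 5.88 log2 CPM. Their median fold change was -1.68, with 0 of 15 past p 0.05.

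Carcinomas and adenomas overlapped in the Hippo genes themselves. *Lats1* (chromosome 10, 7681200 to 7716461) had 33.6 to 153 CPM (median 140.1) in carcinomas, against 32.1 to 142 CPM (median 113) in adenomas, and the low values on both sides were the *Lats1*-CKO tumors. Its fold change within the groups was 0.13 ± 0.0800 (adjusted p = 0.651 by DESeq2). *Lats2* (chromosome 14, 57689662 to 57746212) had 10.951 to 33.7 CPM (median 23.8) in carcinomas, against 8.49 to 55.9 CPM (median 29.6) in adenomas, with a fold change of -0.07 ± 0.40 (adjusted p = 0.981 by DESeq2) that changed sign when single tumors were left out (-0.44 to 0.21). In WT-PyMT tumors *Lats2* was at 22.2 and 23.8 CPM in the 2 carcinomas, against 19.5, 29.4, 29.8 and 55.9 CPM in the 4 adenomas. The carcinomas thus lay below 3 of the 4 adenomas and above WT-PyMT 20. Over all 13 kinases and adaptors of the pathway the median was 0.06, with 0 past p 0.05, and *Stk3*, for MST2, which activates LATS kinases, had 26.3 to 35.8 CPM (median 29.2) in carcinomas, against 17.036 to 37.0 CPM (median 25.8) in adenomas (fold change 0.04 ± 0.16). Targets of YAP and TAZ, the coactivators that LATS kinases restrain, had a median of -0.21 with 0 of 21. *Ctgf* had 62.2 to 192 CPM (median 89.2) in carcinomas, against 30.7 to 191 CPM (median 68.7) in adenomas (fold change 0.02 ± 0.37), *Cyr61* had 53.3 to 219.5 CPM (median 94.978) in carcinomas, against 22.3 to 203 CPM (median 76.4) in adenomas (fold change 0.34 ± 0.39), and *Ankrd1* had 0.687 to 2.60 CPM (median 0.998) in carcinomas, against 0.203 to 3.19 CPM (median 0.583) in adenomas (fold change 0.50 ± 0.72).

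Proliferation genes had fold changes near 0. DNA replication and mitosis genes had a median of -0.10 (fold changes -0.26 to 0.01, 0 of 20 past p 0.05). *Mki67*, the proliferation marker Ki-67, had 164 to 505 CPM (median 367) in carcinomas, against 153 to 507 CPM (median 320.2) in adenomas (fold change -0.01 ± 0.23), and *Top2a*, which untangles chromosomes, had 86.3 to 312 CPM (median 221) in carcinomas, against 92.7 to 355 CPM (median 183) in adenomas (fold change -0.04 ± 0.25). *Pcna*, the clamp of DNA polymerase, had 50.9 to 104 CPM (median 76.9) in carcinomas, against 69.8 to 106 CPM (median 86.1) in adenomas (fold change -0.15 ± 0.15). The fold changes of *Mki67* and *Top2a* lay within 1 standard error of 0. EMT factors had a median of -0.71 with 0 of 11, and the 3 transcription factors listed first had 0.38 ± 0.55 for *Snai1*, -0.06 ± 0.32 for *Snai2* and -0.83 ± 0.61 for *Twist1*. p53 targets (median -0.05, 0 of 13), the unfolded protein response (-0.03, 0 of 12), immediate early genes (0.17, 0 of 12) and Wnt targets (-0.07, 0 of 13) also held no gene past p 0.05. The interferon response had a median of -0.55 with 0 of 15, and *Ifit1*, a sensor of viral RNA, had 6.64 to 391 CPM (median 227) in carcinomas, against 5.72 to 268 CPM (median 107) in adenomas (fold change -0.55 ± 0.92), so that tumors of both kinds were found at either end.

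Energy metabolism genes had small fold changes, and their counts stand beside 57.5% of all genes below 0 and 2.94% lower at p under 0.05. Respiratory chain genes all had fold changes below 0 (16 of 16, median -0.16), and 1 passed p 0.05, *Cox6c* of cytochrome oxidase, with 70.2 to 127 CPM (median 98.1) in carcinomas, against 114 to 158 CPM (median 126) in adenomas (fold change -0.41 ± 0.11, adjusted p = 0.145 by DESeq2). *Ndufs1* of the first complex had 87.0 to 141 CPM (median 116) in carcinomas, against 120.4 to 150.1 CPM (median 133) in adenomas (fold change -0.17 ± 0.13). In the TCA cycle 16 of 19 were below 0 (median -0.09, 0 past p 0.05), and *Cs*, for citrate synthase, had 218 to 356 CPM (median 269) in carcinomas, against 275 to 386 CPM (median 341) in adenomas (fold change -0.21 ± 0.14, adjusted p = 0.737 by DESeq2). Fatty acid oxidation had 14 of 15 below 0 (median -0.19, 1 past p 0.05), and *Cpt1a*, which admits fatty acids to mitochondria, had 53.9 to 89.8 CPM (median 72.8) in carcinomas, against 63.5 to 131 CPM (median 90.9) in adenomas (fold change -0.33 ± 0.18, adjusted p = 0.690 by DESeq2). Glycolysis had a median of 0.02 with 0 of 17. *Slc2a1*, the glucose transporter GLUT1, had 110.1 to 215 CPM (median 126) in carcinomas, against 72.6 to 137 CPM (median 97.8) in adenomas (fold change 0.36 ± 0.20, adjusted p = 0.659 by DESeq2), *Hk1*, a hexokinase, had 331 to 558 CPM (median 486) in carcinomas, against 176 to 466 CPM (median 364) in adenomas (fold change 0.39 ± 0.21, adjusted p = 0.639 by DESeq2), and both carcinoma means were above the adenoma means in all 4 groups. *Hk2* was on the other side, at -0.24 ± 0.17. Hypoxia genes had a median of -0.11 with 0 of 13, and *Car9* had 12.1 to 148 CPM (median 18.9) in carcinomas, against 2.82 to 75.6 CPM (median 8.38) in adenomas (fold change 1.25 ± 0.85). Cholesterol synthesis had a median of -0.11 with 0 of 15. Among acute phase genes (median -1.17), 2 of 11 were lower at p under 0.05, *Hp*, for haptoglobin, with 61.6 ± 30.9 CPM in carcinomas and 169 ± 73.9 CPM in adenomas (mean ± SD, fold change -1.55, adjusted p = 0.0664 by DESeq2), and *Orm1*, which has near-identical copies and is uncertain, with 0.394 to 5.76 CPM (median 0.782) in carcinomas, against 2.48 to 65.0 CPM (median 12.7) in adenomas (fold change -2.89 ± 0.88, adjusted p = 0.0298 by DESeq2).

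Whether the difference between carcinoma and adenoma was itself different between genotypes or experiments was tested by interaction terms. For CKO minus WT-PyMT tumors, edgeR passed 0 of 17232 genes (0%, smallest adjusted p 1), while 318 had an unadjusted p below 0.05 (1.85%), and DESeq2 called 1. That gene was *Mmp12*, the macrophage elastase, whose difference was lower in CKO tumors by 2.51 ± 0.50 on the log2 scale (adjusted p = 0.00877 by DESeq2). *Mmp12* was at 5.81, 6.20, 5.76, 11.4 and 10.1 CPM in CKO carcinomas, against 21.1 and 27.0 CPM in CKO adenomas, and at 14.2 and 6.97 CPM in WT-PyMT carcinomas, against 10.3, 5.31, 4.66 and 3.30 CPM in WT-PyMT adenomas. It was thus higher in the 2 CKO adenomas than in any CKO carcinoma, and the reverse held for the mean of WT-PyMT tumors. For the *Lats1* minus the *Lats2* experiment, edgeR passed 0 of 17232 genes (0%, smallest adjusted p 0.383), while 683 had an unadjusted p below 0.05 (3.96%), and DESeq2 called 125. Of these 125, 98 had a mean of at least 1 CPM, and 13 were among the 15 skeletal muscle genes. In 67 the highest tumor was *Lats2*-CKO 7, the adenoma that also held the hair genes. How many of all genes were highest in that tumor was not counted. *Thrsp* and *Pnpla2* of the white adipocyte list were among the calls not highest there. Some differences, such as 30 for *Krtap3-2* and -30 for *Cdh20*, both under 1 CPM on average, are too extreme to read as sizes.

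The white adipocyte list was lower in carcinomas in all 4 groups, by unequal amounts. The carcinoma mean minus the adenoma mean was -3.89 log2 CPM in *Lats1*-CKO tumors, -2.11 in *Lats2*-CKO tumors, -0.32 in WT-PyMT tumors of the *Lats1* experiment and -4.73 in those of the *Lats2* experiment. The smallest of these is the group whose single carcinoma is WT-PyMT 17. PPARγ targets had -2.58, -1.65, 0.23 and -3.30 in the same order, so that they were not lower in that group. Mast cell genes had -1.66, -1.86, -0.87 and -2.09. In a fit of CKO tumors alone, with 5 carcinomas and 2 adenomas, 11 of 18 white adipocyte genes were lower at p under 0.05 (median -3.11), beside 348 of all 17232 genes. In WT-PyMT tumors alone, with 2 carcinomas and 4 adenomas, 1 was (median -1.90), beside 250 of all genes. The *Lats1* experiment alone gave 4 (median -2.13), beside 433, and the *Lats2* experiment alone 11 (median -3.46), beside 515. For CKO minus WT-PyMT tumors, the interaction test above passed 0 genes in edgeR and *Mmp12* alone in DESeq2. Between the experiments edgeR also passed 0 genes, but DESeq2 called *Thrsp* and *Pnpla2* of this list. Their differences, *Lats1* minus *Lats2* experiment, were 1.78 ± 0.27 (adjusted p = 2.52e-07 by DESeq2) and 1.07 ± 0.28 (adjusted p = 0.0262 by DESeq2). The other members of the list were not called. Without WT-PyMT 2 and WT-PyMT 14, the adenomas richest in fat cell RNA (an alternative added after the data were seen), 8 white adipocyte genes were lower, beside 249 of all genes. Their median was then -2.09.

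**Figure D4:**
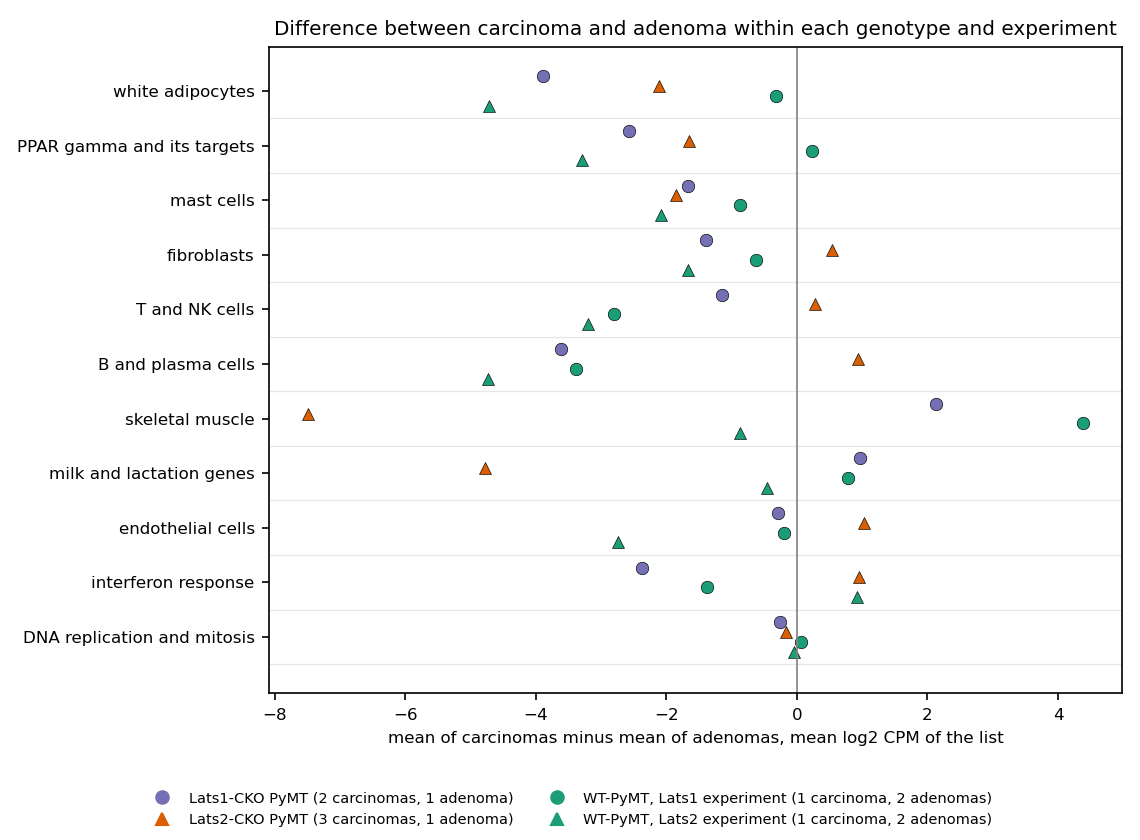
Mean of the carcinomas minus the mean of the adenomas (x axis, mean log2 CPM of the list) within each of the 4 genotype-by-experiment groups, for 11 gene lists (rows). White adipocyte and mast cell genes were below 0 in all 4 groups, whereas the lymphocyte, skeletal muscle and milk lists took both signs.

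The white adipocyte level was then added to the fit as a covariate. It is itself lower in carcinomas, so that this fit asks what differs between carcinomas and adenomas of equal fat cell RNA, although a single carcinoma lay within the adenoma range. With it, 65 genes were past p 0.05 on the higher side and 33 on the lower side, against 275 and 507 without it, and edgeR's smallest adjusted p was 1. The 10 higher genes kept between 60.3 and 151% of their fold change (median 106%), and the 10 lower genes between 19.2 and 59.9% (median 48.3%). *Zbtb38* had 0.83 in this fit and *Itpr3* 0.42. *Agmo* had -0.68 and *Efemp1* -0.64. *Sfrp4* changed least among the lower genes singled out here, at -2.07 against -2.30. Fibroblast genes had a median of 0.13, mast cells of -0.67 and B and plasma cells of -3.90 with that covariate.

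**Figure D5:**
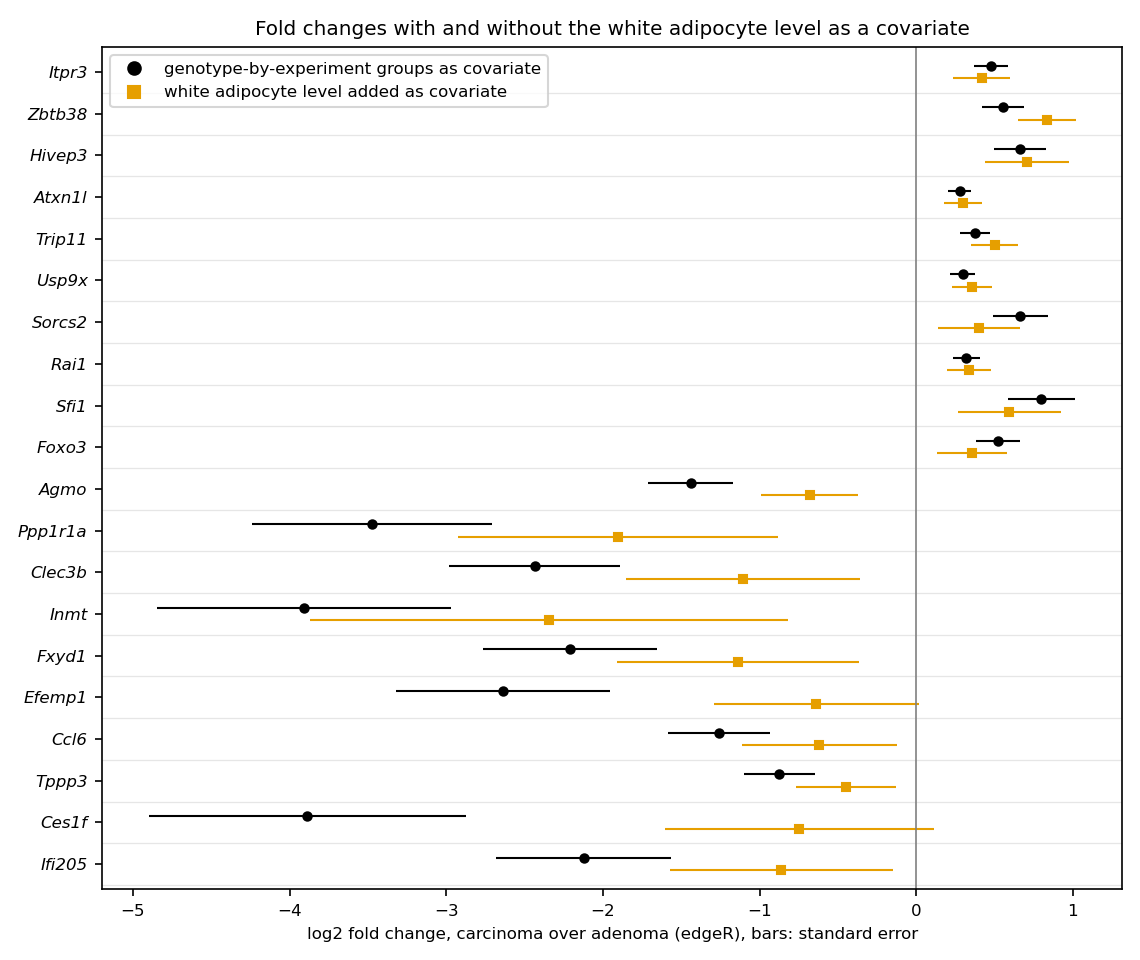
log2 fold changes of carcinoma over adenoma (x axis, edgeR, bars are standard errors) for the 10 higher and 10 lower genes (rows), with the genotype-by-experiment groups alone as covariate (circles) and with the white adipocyte level added (squares). The higher genes stayed between 60.3 and 151% of their value and the lower genes between 19.2 and 59.9%.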

How the data were processed

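PolyA RNA of 14 PyMT mammary tumors was sequenced in 2 experiments of 7 libraries, each on a lane of its own. More than one kit is named for RNA extraction, and which kit served which tumor was not given in the sources used here. The deposited values are counts of reads per gene that the authors obtained after alignment with STAR to mm10 (per the submitters' processing notes). The tables of both experiments were joined on gene symbol, which left 17232 genes (470 and 531 stood in only one of them), and 16438 symbols matched RefSeq GRCm38.p6, from which coordinates and the promoter were taken.

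The 7 carcinomas and 6 adenomas were compared in R 4.3.3 with the quasi-likelihood F test of edgeR 4.0.16 (TMM scaling, with limma 3.58.1 loaded), with the 4 genotype-by-experiment groups as covariate and Benjamini-Hochberg adjustment over all genes at 0.05 (8 residual degrees of freedom), and log2 CPM used a prior count of 2. DESeq2 1.42.0, the tool of the study, was the first alternative, and 132 genes without an adjusted p in it were left out of its counts. Others changed the scaling, the filter on low counts, the covariates and the tumors, and left out each tumor in turn. The fits were also run on simulated counts, with the same spread for all genes and no genotype or experiment effects. That run checked the recovery of planted fold changes. It cannot show how the fits behave with the unequal spread of these tumors. Depth and the number of tumors limit the precision, and p-values cover the spread between these tumors.

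Named genes were the 10 with the smallest p in each direction among genes of at least 1 CPM on the same side in all 4 groups (none passed the adjusted threshold), *Lats1* and *Lats2*, and the first 3 measured members of each list. The remaining genes were picked with their values in view. Some named genes are not reported here. The comparison and the 45 gene lists were chosen with earlier results of these data known.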

Additional observations from a re-analysis of the deposited data

Results flagged for a closer look

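In 130 groups of 6 or 7 tumors (the levels of 45 lists and 20 genes), 10 held a tumor far from the rest, where chance gives about 1 in 20 groups. Among carcinomas, WT-PyMT 17 was highest for squamous differentiation (mean 1.40 log2 CPM), brown adipocytes (3.93) and *Tppp3* (3.51 log2 CPM), and the library labelled *Lats2*-CKO 1 was highest for YAP/TAZ targets (5.10) and glycolysis (7.34). Among adenomas, WT-PyMT 14 was lowest for simple epithelial keratins and junctions (6.41), and *Lats2*-CKO 7 was lowest for endothelial cells (2.22) and highest for skeletal muscle (7.35). *Lats1*-CKO 27 was the highest adenoma for the hypoxia response (6.15) and the lowest for immediate early genes (4.89).

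The adenosquamous tumor, *Lats1*-CKO 21, lay above all 13 other tumors in 9 lists. Its mean was 4.99 log2 CPM for squamous differentiation, 5.51 for Wnt feedback and targets, 2.34 for neutrophils and 5.35 for matrix proteases and inhibitors. It was 5.42 for pericytes, 8.11 for fibrillar collagens and matrix proteins, 6.30 for cholesterol synthesis, 6.81 for DNA replication and mitosis and 5.29 for YAP/TAZ targets. This is 1 tumor and no test was made.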

How the results depend on the processing

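The count of genes past the adjusted threshold was 0 in edgeR under every alternative run and when each tumor was left out, against 107 in DESeq2. The counts at an unadjusted p under 0.05, 275 higher and 507 lower in carcinomas, became 480 and 1048 with DESeq2, 629 and 2026 with the experiment alone as covariate, 627 and 1891 with no covariate, 65 and 33 with the white adipocyte level as covariate, 70 and 250 in WT-PyMT tumors alone, and 479 and 764 without WT-PyMT 14 and *Lats2*-CKO 7. In CKO tumors alone 169 were higher. Of 2 alternatives chosen after seeing the data, leaving out WT-PyMT 14 and WT-PyMT 22 gave 448 higher and leaving out WT-PyMT 2 and WT-PyMT 14 gave 249 lower. The cause of these shifts was not tested. Leaving out 1 tumor gave 116 (without WT-PyMT 1) to 634 (without WT-PyMT 2) higher genes and 236 (without WT-PyMT 1) to 894 (without *Lats2*-CKO 7) lower genes.

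For the difference between CKO and WT-PyMT tumors, DESeq2 called 1 gene and had 736 at an unadjusted p under 0.05, and leaving out 1 tumor gave 176 to 1072 at that p and 0 past the adjusted threshold. For the difference between experiments, DESeq2 called 125, and leaving out 1 tumor gave 0 to 1 past the adjusted threshold and 369 to 1263 at an unadjusted p under 0.05.

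Of 1470 fold changes of single genes under alternatives, 1420 kept direction and stayed short of the adjusted threshold. A further 35 passed the threshold in DESeq2 only, and 15 turned sign, none of them past the threshold. The main fit passed 0 genes, so that there was no call to lose. Of the genes followed, 20 were chosen for the same direction in all 4 groups and others with their values in view. These counts therefore do not measure how stable the results are. With the white adipocyte level as covariate the fold change was 0.055 for *Adipoq*, 0.059 for *Fabp4* and 0.79 for *Lep*. These genes are members of the list whose mean is that covariate. The fit therefore takes out most of their difference by construction, and the turned signs carry no further information. *Pparg*, which is not a member of that list, had 0.21. *Lats1* had -0.11 with the experiment alone as covariate. *Lats2* had 0.32 with the lymphocyte level as covariate, 0.41 in CKO tumors alone, 0.24 in the *Lats2* experiment alone, 0.20 without WT-PyMT 14 and WT-PyMT 22, 0.24 without WT-PyMT 2 and WT-PyMT 14, and -0.44 to 0.21 when each tumor was left out. No paired analysis was possible because the tumor numbers in the labels name single tumors and pair none across groups.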
